A study of Mus musculus with 14 samples.

Results

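Near-start regions are stretches of chromatin carrying H3K4me3 whose closest edge lies more than 1 kb and at most 3 kb from the nearest gene start, so they flank a start without reaching it. They were found by merging the overlapping or touching peaks of 7 H3K4me3 peak lists into consensus regions and measuring each region's distance to the start of any gene with a known strand. Of 14659 consensus regions, 1089 (7.43%) were near-start regions. Another 10665 regions (72.8%) lay within 1 kb of a start, 2296 lay farther than 3 kb but inside a gene, and 609 lay farther than 3 kb and outside genes. Near-start regions lay mostly on the gene side of the start: 823 (75.6%) were downstream and 266 (24.4%) were upstream. For 579 of them (53.2%) the same start had a consensus region of its own within 1 kb, and for the other 510 (46.8%) the start had none.

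Trimethylation of histone H3 at lysine 4 (H3K4me3) is laid down by SET1 and MLL methyltransferase complexes and removed by KDM5 demethylases. It marks the first nucleosomes of transcribed genes, is strongest at promoters rich in CpG dinucleotides, and its breadth differs between genes. Many mammalian genes have more than 1 transcript start, so the outermost annotated start of a gene need not be the one that carries the mark in a given cell type.

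The study compared LSK cells, the Lin−Sca1+cKit+ fraction of bone marrow that holds hematopoietic stem cells and multipotent progenitors, from male C57BL/6J mice on a diet with 60% of kcal from fat (HFD) or 10% of kcal from fat (LFD). Feeding began at 3 to 4 weeks of age and lasted 16 to 20 weeks. H3K4me3 was profiled by CUT&Tag, in which an antibody (ab8580) directs a transposase to the mark, in LSK cells sorted from tibias and femurs. The paper's methods for cell isolation also list iliac and brachial bones. There were 3 HFD-LSK libraries and 4 LFD-LSK libraries, each with 1 peak list, and 7 matched IgG libraries are not analysed here. The labels do not say whether a library came from 1 mouse or from pooled mice, so p-values measure only the spread between these libraries. The lists of HFD-LSK replicates 1, 2 and 3 held 9186, 13094 and 11977 peaks, and those of LFD-LSK replicates 1 to 4 held 7447, 10572, 10352 and 6921. The lists carry no read totals, so sequencing depth is not given, and a region that a list lacks may still carry the mark in that library.

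The marks at marker genes were those of progenitors for the most part. Of 11 LSK markers, 9 had a called region within 1 kb of the gene start in at least 1 list and 6 (Kit, Cd34, Gata2, Meis1, Mecom and Hoxa9) had one in all 7. Ly6a, which encodes Sca1, had none within 1 kb of its start in any list, and the nearest region lay 39979 bp away. Erg had none at its gene start but had one at another of its listed transcript starts in 6 lists. No region was called at the starts of 5 mature T-cell genes. A region was called at 1 of 4 mature B-cell genes (Cd79b, 3 lists) and at 1 of 7 granulocyte and monocyte genes (Cd14, 6 lists).

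Most near-start regions were called in few lists, while a smaller group recurred in nearly all of them. As many as 493 (45.3%) were called in a single list and 121 (11.1%) in all 7, against 9.42% and 37.3% of the regions within 1 kb of a start and 41.6% and 12.0% of the regions deeper inside genes. The single-list regions came mainly from the longest lists, with 257 in HFD-LSK replicate 2 and 161 in HFD-LSK replicate 3. LFD-LSK replicates 2, 3 and 4 held 21, 49 and 5 of them, and HFD-LSK replicate 1 and LFD-LSK replicate 1 held 0. Regions in a single list had a median consensus width of 407 bp and those in all 7 lists 1713 bp. A consensus width is the union of the peaks of all lists that called the region, so each further list can only widen it. The number of near-start regions fell with distance from the start, from 384 between 1000 and 1500 bp to 288, 231 and 186 in the following steps of 500 bp.

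Near-start regions stood lower within their own lists than regions at starts, and no difference from the regions deeper inside genes was detected. Each peak was given a fold-rank percentile, its place in its own list when sorted by fold enrichment, with values near 0 at the top of the list. Fold enrichments depend on each library's own background and were not compared as levels. The median percentile of near-start regions was 64.6, 76.6 and 58.8 in HFD-LSK replicates 1 to 3 and 59.8, 65.4, 64.4 and 57.9 in LFD-LSK replicates 1 to 4. For regions within 1 kb of a start the medians were 46.3, 42.5 and 44.0 and 47.3, 44.8, 44.7 and 45.9 in the same order. In 7 of 7 libraries near-start regions thus stood farther from the top, by 18.9 ± 7.51 percentile points (mean ± SD, n = 7 libraries; exact sign-flip permutation test, two-sided, p = 0.0156, the smallest value 7 libraries allow; Benjamini-Hochberg adjusted p = 0.0278 over 16 tests). The difference was 5.78 points (exact p = 0.0312) with distance measured from the middle of the region, 10.6 with lists cut to the same length and 28.3 when every listed transcript start counted as a start. Against regions over 3 kb from any start and inside a gene, whose medians ran from 58.8 to 72.2, the difference was −0.37 ± 2.70 points (exact p = 0.75). It was 1.13, 4.46 and 0 in HFD-LSK and −3.50, 0, −1.91 and −2.75 in LFD-LSK, so the mean joins values of 0 or more in one diet with values of 0 or less in the other (3.90 points between the diets; exact permutation p = 0.0857). With distance from the middle it was −12.8 points (exact p = 0.0156).

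Their peaks were also narrower than those at starts. The median peak width of near-start regions was 766, 822 and 554.5 bp in HFD-LSK replicates 1 to 3 and 710, 771, 656 and 469 bp in LFD-LSK replicates 1 to 4. At starts it was 896, 1297 and 838 bp and 757, 1005, 861 and 547 bp in the same order. The near-start medians were the lower ones in all 7 libraries, with a mean difference of −207.5 ± 145 bp (exact sign-flip permutation test, p = 0.0156; adjusted p = 0.0278). With lists cut to the same length it was −71.5 bp (exact p = 0.0312), and with every listed transcript start counted it was −313 bp. Width is not independent of how the regions were chosen, since a wide peak is more likely to reach the start. When distance was measured from the middle of the region instead of its edge, 1683 regions qualified and the difference from start regions was 35 bp (exact p = 0.344). Peaks deeper inside genes had medians from 468 to 874 bp, and near-start peaks differed from them by −7.07 ± 41.2 bp (exact p = 0.75). The width of near-start minus in-gene peaks was 199.9 bp (exact p = 0.0156) with distance from the middle. It was −31.8 bp (exact p = 0.0469) when every listed transcript start counted as a start.

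The side of the start and the presence of a region at that start divided the near-start regions into unlike groups. Those without a region at their own start were called in a median of 4 lists and had a median consensus width of 949 bp, and 104 of 510 (20.4%) were called in all 7 lists. Those beside a start with its own region were called in a median of 1 list and had a median consensus width of 575 bp, and 17 of 579 (2.94%) were called in all 7. Consensus width depends on the number of lists that called a region. The 401 downstream regions whose start had none stood highest, with 92 (22.9%) called in all 7 lists. Of the 109 upstream regions whose start had none, 12 were called in all 7 lists.

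Within each list the regions at starts without their own region stood nearer the top. Their median percentile was 58.6, 65.9 and 51.2 in HFD-LSK replicates 1 to 3 and 52.2, 53.7, 52.5 and 54.7 in LFD-LSK replicates 1 to 4. For regions beside a start with its own region it was 73.6, 83.6 and 66.5 and 76.4, 78.6, 77.7 and 70.1 in the same order. The first median was the lower one in every library, and the difference was 19.7 ± 4.85 points (7 of 7 libraries; exact sign-flip permutation test, p = 0.0156; adjusted p = 0.0278). Peaks beside a start with its own region were narrower in all 7 libraries, by a difference of −208 ± 96.0 bp (exact p = 0.0156; adjusted p = 0.0278). Width is not independent of this split, since a wider peak is more likely to touch the start region and merge with it. The width test therefore cannot separate a difference in width from the merging rule. Merging takes peaks that touch the start region out of the group beside it. The percentile test has the same limit, since the group nearer the top also had the wider peaks. The width difference was −114 bp with lists cut to the same length, −91.9 bp with every listed transcript start counted and −482 bp with distance from the middle, and the percentile difference was 11.3 points with every listed start counted.

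Downstream regions stood nearer the top than upstream regions in all 7 libraries. The downstream medians were 61.6, 74.1 and 58.8 in HFD-LSK replicates 1 to 3 and 57.3, 63.6, 60.2 and 54.7 in LFD-LSK replicates 1 to 4, and the upstream medians were 75, 80.8 and 64.7 and 78.1, 71.2, 66.3 and 73.1. The difference was −11.3 ± 6.29 points (exact sign-flip permutation test, p = 0.0156; adjusted p = 0.0278), and downstream peaks were 118 ± 36.9 bp wider (exact p = 0.0156; adjusted p = 0.0278). Without HFD-LSK replicate 2, the longest list, the difference in percentile was −7.25 points (exact p = 0.0938), and when every listed transcript start counted as a start it was −4.50 points (exact p = 0.219) and that in width 23.8 bp (exact p = 0.0312). The difference in width was 197.5 bp with protein-coding starts alone, 217 bp with distance from the middle and 66.2 bp without HFD-LSK replicate 2. With calls limited to peaks covering at least 50% of the region, the difference in width was 108 bp (exact p = 0.0625).

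Starts that had both a region of their own and a near-start neighbour made up 547 distinct start regions. The gap between the neighbour and the start region had a median of 705 bp, and 197 of 579 gaps (34.0%) were at most 500 bp. The start region was called in more lists than its neighbour in 454 pairs, in as many in 66 and in fewer in 59. Where a list called the neighbour, the same list called the start region for 72.4%, 94.7% and 84.3% of them in HFD-LSK replicates 1 to 3 and for 63.6%, 84.8%, 78.3% and 58.3% in LFD-LSK replicates 1 to 4. Among these the start region ranked above its neighbour in 77.5%, 85.4% and 70.1% and in 64.3%, 79.5%, 77.7% and 57.1% in the same order. Over all neighbours called, including those whose start region the list lacked, the start region was called and ranked above in 56.1%, 80.9% and 59.1% in HFD-LSK replicates 1 to 3 and in 40.9%, 67.4%, 60.8% and 33.3% in LFD-LSK replicates 1 to 4.

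Peaks at these starts were somewhat wider than at other starts, although this rested on the processing. Their median width was 975, 1437 and 894 bp in HFD-LSK replicates 1 to 3, against 889, 1290 and 837 bp at other starts. In LFD-LSK replicates 1 to 4 it was 795, 1144.5, 909 and 552 bp, against 756, 1000, 859 and 547 bp. The difference was 75.5 ± 53.7 bp (7 of 7 libraries; exact sign-flip permutation test, p = 0.0156; adjusted p = 0.0278). It was −22.2 bp (exact p = 0.391) when the lists were cut to the same length and −1.71 bp (exact p = 0.797) when peaks within 500 bp were merged. With regions called in at least 2 lists it was 42.8 bp (exact p = 0.156), and with distance from the middle 23 bp (exact p = 0.0781). Without HFD-LSK replicate 2 it was 103 bp (exact p = 0.0625).

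Most starts had a single near-start region: of 1050 distinct starts, 1012 had 1, 37 had 2 and 1 had 3, and 13 had regions on both sides. The start with 3 belonged to 4930412O13Rik, a long noncoding RNA gene on chromosome 2. Its upstream region (chr2:9875806-9880071, 4266 bp) was called in all 7 lists and holds the listed start of Gata3, the zinc-finger factor of T-cell and stem-cell programs, on the opposite strand. Its percentiles were 41.1, 29.9 and 20.6 in HFD-LSK replicates 1 to 3 and 50.8, 33.6, 60.2 and 64.1 in LFD-LSK replicates 1 to 4. The downstream pair of regions, of 605 and 498 bp, were each called in 1 list. Starts with 2 regions included those of Gm38457, Gm30543 and Gm26698, whose regions were called in 1 or 2 lists each, and that of Ccnd1, with upstream regions called in 3 and 2 lists.

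Many of the recurrent near-start regions contained another start. RefSeq lists 32851 transcript starts for 27025 genes, and 248 of 1089 near-start regions (22.8%) held at least 1 of them, although each region lay over 1 kb from the outermost start of every gene with a strand. This share was larger for regions found in more lists, from 18 of 493 (3.65%) in a single list to 80 of 121 (66.1%) in all 7, and regions found in more lists were also wider. It was 211 of 510 (41.4%) where the start had no region of its own and 37 of 579 (6.39%) where it had one. In 207 of the 248 (83.5%) the listed start belonged to the nearest gene itself. Those lie downstream by definition, since distance was taken from the outermost start of a gene, and the 30 upstream regions with a listed start held one of another gene. For comparison, 25% of the regions deeper inside genes and 74.2% of those within 1 kb of a gene start held a listed start.

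Near-start regions with a listed start ranked higher and had wider peaks within each list than those without one. Holding a start is not independent of width, since a wider region is more likely to reach one. Their median percentile was 54.1, 51.5 and 40.9 in HFD-LSK replicates 1 to 3 and 52.2, 47.4, 49.3 and 52.1 in LFD-LSK replicates 1 to 4, against 74.1, 83.1 and 66.5 and 69.2, 77.9, 76.3 and 67.0 for those without one. Their median peak width was 837, 1231 and 811 bp and 770, 967.5, 808.5 and 501 bp, against 693, 672.5 and 474 bp and 640, 646, 540 and 397 bp. In all 7 libraries they stood nearer the top, with a difference of −23.8 ± 6.56 points (exact sign-flip permutation test, p = 0.0156; adjusted p = 0.0278), and were wider by 266 ± 160 bp (exact p = 0.0156; adjusted p = 0.0278). With lists cut to the same length they were wider by 121 bp. This comparison was chosen after the values were seen. Where a region held a single listed start, the median summit lay downstream of it in every library, by 135, 152 and 133 bp in HFD-LSK replicates 1 to 3 and by 129, 174.5, 76 and 49 bp in LFD-LSK replicates 1 to 4.

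The sequence at these inner starts was rich in CpG. In the 300 bases around a listed start (250 before to 50 after, RefSeq, GRCm38.p6), the median number of CpG dinucleotides was 22 for 297 starts inside near-start regions, 23 for 10863 starts inside regions at gene starts, 19 for 684 starts inside regions deeper in genes and 7 over all 32851 listed starts. Around 142 gene starts that had a near-start region and no region of their own it was 4, the same median as at 21007 listed starts in no region, and around 239 gene starts with both it was 21. Only gene starts with a listed sequence could be counted, while these groups hold 510 and 579 near-start regions. For 11 genes, sequence was given for both the outer start without a region and the inner start inside a near-start region, a median of 2046 bp apart. In 10 of the 11 the inner start had more CpG, with a median of 16 against 2. The exception was Taf9b, with 16 at the inner and 22 at the outer start. Such counts describe the sequence and were not tested as a cause of the mark.

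The following sequences are given 5′ to 3′ on the strand of the gene, from RefSeq (GRCm38.p6), with each CpG in capitals, to show inner starts under near-start regions called in most lists and, for Fth1 and Angel2, the outer start without a called region. Esyt2 and Vapa had 28 and 40 CpG at the inner start, and Mia2 had 45, while the listed starts of Dedd, Cytip and Gm16141, under the regions of Gm20045, Gm13546 and Meis1, had 6, 7 and 3. Fth1, the heavy chain of the iron store ferritin, had 4 at the outer and 27 at the inner start, and Angel2 had 2 and 17. Fth1, Angel2 and Taf9b were chosen after their values were seen.
Esyt2, start inside its region (chr12:116280972-116281271, plus strand): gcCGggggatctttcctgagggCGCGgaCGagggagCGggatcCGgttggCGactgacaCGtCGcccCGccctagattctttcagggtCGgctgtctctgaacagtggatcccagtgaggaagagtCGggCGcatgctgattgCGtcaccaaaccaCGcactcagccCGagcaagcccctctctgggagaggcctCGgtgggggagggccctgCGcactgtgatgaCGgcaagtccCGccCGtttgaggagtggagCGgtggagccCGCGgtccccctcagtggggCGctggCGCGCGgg
Vapa, start inside its region (chr17:65613506-65613805, minus strand): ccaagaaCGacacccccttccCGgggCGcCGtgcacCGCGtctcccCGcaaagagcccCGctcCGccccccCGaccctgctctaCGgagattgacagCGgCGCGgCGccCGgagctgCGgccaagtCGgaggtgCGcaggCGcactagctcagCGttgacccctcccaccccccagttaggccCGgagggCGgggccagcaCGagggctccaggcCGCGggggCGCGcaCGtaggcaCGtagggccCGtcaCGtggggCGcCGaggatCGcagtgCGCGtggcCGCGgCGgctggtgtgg
Mia2, start inside the region upstream of Gm24233 (chr12:59131231-59131530, plus strand): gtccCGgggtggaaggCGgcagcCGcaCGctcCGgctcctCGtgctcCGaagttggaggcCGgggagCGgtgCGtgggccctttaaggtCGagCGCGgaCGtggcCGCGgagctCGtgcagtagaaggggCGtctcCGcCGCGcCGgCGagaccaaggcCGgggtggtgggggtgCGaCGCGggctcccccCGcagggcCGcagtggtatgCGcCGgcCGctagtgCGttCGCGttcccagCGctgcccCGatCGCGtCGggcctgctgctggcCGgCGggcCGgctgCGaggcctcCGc
Fth1, outer start without a region (chr19:9980350-9980649, plus strand): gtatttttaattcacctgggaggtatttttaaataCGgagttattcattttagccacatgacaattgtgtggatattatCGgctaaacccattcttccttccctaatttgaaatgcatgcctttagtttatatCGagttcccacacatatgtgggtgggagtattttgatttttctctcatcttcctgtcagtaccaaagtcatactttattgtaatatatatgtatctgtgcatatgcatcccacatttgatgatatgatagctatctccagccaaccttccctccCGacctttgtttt
Fth1, start inside its region (chr19:9982396-9982695, plus strand): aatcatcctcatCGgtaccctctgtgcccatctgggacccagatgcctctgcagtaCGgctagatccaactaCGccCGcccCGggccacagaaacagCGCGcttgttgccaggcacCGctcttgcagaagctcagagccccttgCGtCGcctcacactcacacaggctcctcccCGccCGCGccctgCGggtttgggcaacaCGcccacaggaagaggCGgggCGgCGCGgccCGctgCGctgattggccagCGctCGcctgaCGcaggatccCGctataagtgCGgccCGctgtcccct
Angel2, outer start without a region (chr1:190924858-190925157, plus strand): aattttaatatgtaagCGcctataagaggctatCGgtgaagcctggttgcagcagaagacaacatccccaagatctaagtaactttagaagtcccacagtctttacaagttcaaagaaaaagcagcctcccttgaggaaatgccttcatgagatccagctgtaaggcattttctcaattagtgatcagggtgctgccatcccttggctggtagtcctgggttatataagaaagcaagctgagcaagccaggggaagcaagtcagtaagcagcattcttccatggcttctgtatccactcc
Angel2, start inside its region (chr1:190928240-190928539, plus strand): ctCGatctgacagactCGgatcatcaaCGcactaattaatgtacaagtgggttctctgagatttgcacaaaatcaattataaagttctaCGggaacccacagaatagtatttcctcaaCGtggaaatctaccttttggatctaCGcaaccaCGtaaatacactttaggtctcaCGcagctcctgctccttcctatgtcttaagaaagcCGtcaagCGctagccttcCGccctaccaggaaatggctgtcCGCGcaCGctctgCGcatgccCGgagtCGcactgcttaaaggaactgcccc

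Among regions called in all 7 lists, the downstream ones nearest the top belonged to Esyt2, Vapa, Ccnl1, Zfp397, Sema4c and Fbxo33, and all 6 lay at starts with no region of their own. For Esyt2, which encodes a tether between endoplasmic reticulum and plasma membrane, the region (chr12:116280312-116282471) began 1029 bp from the gene start. Its percentiles were 0.631, 0.0993 and 35.7 in HFD-LSK replicates 1 to 3 and 0.906, 0.605, 0.353 and 2.92 in LFD-LSK replicates 1 to 4. HFD-LSK replicate 3 stood far below the other 6 libraries. For Vapa, a membrane contact-site protein, the region (chr17:65612147-65614590, 1872 bp from the start) had percentiles of 0.0435, 0.21 and 16.9 and of 0.0806, 8.96, 2.12 and 36.2. Its peaks were 2205, 2444 and 2056 bp and 1802, 1841, 1963 and 800 bp wide. The diets overlapped at both genes.

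Sema4c, which encodes a transmembrane semaphorin, had percentiles of 23.3, 6.83 and 13.7 in HFD-LSK and 8.53, 20.3, 19.4 and 17.6 in LFD-LSK at chr1:36555974-36558963. Fbxo33, an F-box gene, had 9.73, 1.68 and 60.4 and 7.46, 12.9, 3.47 and 20.7 at chr12:59217942-59220179. Zfp397, a zinc-finger gene whose region held no listed start, had 5.98, 0.955 and 50.2 and 19.1, 3.30, 9.84 and 13.2. In each of these 3 regions the values of the diets overlapped.

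Of the 6 upstream regions nearest the top among those called in all 7 lists, 5 had as their nearest start that of a noncoding RNA gene and only Gpsm3 was protein-coding. The highest lay 2084 bp upstream of the small nucleolar RNA gene Gm24233 (chr12:59130409-59131988) and held a listed start of Mia2, a gene of endoplasmic reticulum export sites. Its percentiles were 1.85, 4.30 and 23.8 in HFD-LSK and 3.91, 3.87, 7.63 and 5.14 in LFD-LSK. The region 1037 bp upstream of Gm20045 held the start of Dedd, a death-effector-domain gene, with percentiles of 9.73, 7.66 and 61.9 and 19.1, 12.5, 25.2 and 28.4. The names of the nearest genes thus did not always name the gene whose listed start the region held.

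Gpsm3, a regulator of G-protein signalling in leukocytes, was the only one of these 6 with a region at its own start as well. Its upstream region (chr17:34586461-34588467) had percentiles of 9.04, 9.07 and 32.7 in HFD-LSK and 9.87, 19.6, 25.9 and 41.5 in LFD-LSK. The mean percentile was 21.1 for the upstream region and 62.6 for the region at the start, so the neighbour stood above the start. The regions upstream of Gm41298, Gm42253 and Gm52869, which held no listed start, had mean percentiles of 22.6, 29.6 and 32.2. The first 2 rested largely on 1 library each: Gm41298 stood at 99.1 in LFD-LSK replicate 3 and Gm42253 at 99.5 in HFD-LSK replicate 3, and without these the means were 9.88 and 17.96.

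The 4 widest near-start regions were those of Rhof (5119 bp), Nfe2 (5063 bp), Midn (4797 bp) and Gm13546 (4660 bp). Nfe2 encodes a transcription factor of the megakaryocyte and erythroid lineages. Its downstream region (chr15:103251701-103256763) was called in 6 lists, with peaks of 1900, 2865 and 750 bp in HFD-LSK replicates 1 to 3 and 1301, 677 and 245 bp in LFD-LSK replicates 2 to 4. Its consensus width is the union of these peaks and exceeds each of them. Midn, which encodes midnolin, was called in all 7 lists with peaks from 999 to 4765 bp and holds a listed start of its own gene, and the region of Gm13546 holds the listed start of Cytip, a leukocyte adhesion regulator.

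Blood-cell genes appeared among the near-start regions by gene list as follows. Over all 21440 protein-coding genes with a start, 817 (3.81%) were the nearest gene of at least 1 near-start region. This share counts genes whether or not they carry any called region, and the lists were not tested against it. Of 50 transcription factors of stem and progenitor cells, 4 (8%) were: Meis1, Mecom, Ikzf2 and Myc, each with a region at its own start. Meis1, a homeobox factor of stem-cell self-renewal, had a 4425 bp downstream region, which was 4404 bp wide in HFD-LSK replicate 2 and from 347 to 845 bp in the other 5 lists that called it, with percentiles of 93.4, 54.9 and 61 in HFD-LSK and 82.2, 68.2 and 96.5 in LFD-LSK replicates 2 to 4. The region at its start was called in all 7 lists with a mean percentile of 22.0. The Mecom and Myc regions were called in 1 list each and that of Ikzf2 in 2.

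Of 35 progenitor surface and cytokine receptor genes, 5 (14.3%) had a near-start region, all downstream: Cd34, Esam, Itga2b, Cxcr4 and Il1r1. Only Esam, an adhesion molecule found on hematopoietic stem cells, was called in 5 or more lists, with percentiles of 66.0, 42.8 and 50.6 in HFD-LSK and 75.7, 71.3 and 60.2 in LFD-LSK replicates 1 to 3. The Cd34 region was called in 2 lists and the other 3 in 1. Among 60 inflammatory signalling genes only Fos (1.67%), an immediate early transcription factor, had one. It was called in HFD-LSK replicate 2 and LFD-LSK replicate 2, at percentiles of 63.6 and 77.0.

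Enzymes that write or erase H3K4 methylation included 4 of 22 genes (18.2%): Kmt2d, Kdm5b, Setd1b and Kdm1a. At Kmt2d, which encodes a methyltransferase of H3K4, the gene start had no region and the downstream region (chr15:98868548-98872896) held a listed start and was called in all 7 lists. Its percentiles were 17.1, 45.0 and 23.8 in HFD-LSK and 38.9, 38.9, 38.3 and 38.1 in LFD-LSK. At Kdm5b, a demethylase of H3K4me3, an upstream region (chr1:134556124-134557397, 2781 bp from the start) was called in 5 lists, at 14.1, 8.21 and 20.5 in HFD-LSK and at 10.2 and 6.24 in LFD-LSK replicates 2 and 3. Its mean percentile of 11.8, over the 5 lists that called it, stood above the 42.7 of the region at the Kdm5b start. The mean at the start covered 7 lists, so these means are over unlike sets of libraries. Setd1b and Kdm1a had regions in 1 list each.

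Of 30 cell-cycle genes, 3 (10%) had near-start regions: Ccnd1, Ccnd3 and Cdkn1b, which encode D-type cyclins and the inhibitor p27. The Ccnd3 region was called in 5 lists at percentiles from 61 to 91.2, and that of Cdkn1b in 4. Of 25 genes of oxidative stress and metabolism, 2 (8%) did: the glucose transporter Slc2a1 in 1 list and the lipid regulator Srebf1 in 2. The Srebf1 region held a listed start of the gene and ranked at 76.6 in HFD-LSK replicate 2 and 89.1 in LFD-LSK replicate 4.

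A few further regions called in most lists show both kinds of neighbour and were chosen after their values were seen. Mcl1, a survival factor of hematopoietic stem cells, had a downstream region holding a listed start and no region at its outer start, at percentiles of 7.82, 43.3 and 57.6 in HFD-LSK and 9.87, 17.7, 12.8 and 10.6 in LFD-LSK. Jarid2, a cofactor of the polycomb repressive complex, had both, and its downstream region (mean percentile 40.8) ranked below the one at its start (8.21). At Ier2, an immediate early gene, the upstream region also ranked below the start region, at mean percentiles of 57.9 and 27.8. The Fth1 region was called in 6 lists, at 18.6, 22.6 and 18.5 in HFD-LSK and 63.9, 35.8 and 45.9 in LFD-LSK replicates 2 to 4.

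To ask whether diet changed the number or kind of near-start regions, the libraries of the diets were compared. HFD-LSK replicates 1, 2 and 3 called 334, 829 and 624 near-start regions and LFD-LSK replicates 1 to 4 called 223, 444, 458 and 221. The mean was 596 ± 249 (SD, n = 3) against 336.5 ± 132 (n = 4), and the ranges overlapped (exact permutation test, two-sided, p = 0.143; adjusted p = 0.208). As a share of all regions called, near-start regions took 3.75%, 6.38% and 5.56% in HFD-LSK and 3.08%, 4.37%, 4.67% and 3.39% in LFD-LSK (exact permutation p = 0.143). Libraries with longer lists called more of them. With the 6921 peaks of highest fold taken from each list, the counts were 215, 209 and 330 in HFD-LSK and 203, 233, 249 and 239 in LFD-LSK. The shares were then 3.14%, 3.02% and 4.89% and 2.99%, 3.40%, 3.67% and 3.66%, and the difference between the diets fell from 1.35 to 0.253 percentage points (exact permutation p = 0.771). List length and diet cannot be told apart as sources of the difference in counts.

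The values for the make-up of the near-start regions overlapped between the diets. The downstream share was 79.6%, 76.1% and 76.4% in HFD-LSK and 82.1%, 77.5%, 77.9% and 82.4% in LFD-LSK (difference −2.56 percentage points; exact permutation p = 0.229). Regions beside a start with its own region made up 29.3%, 50.5% and 40.7% in HFD-LSK and 19.7%, 40.1%, 41.3% and 21.7% in LFD-LSK (difference 9.49 points; exact permutation p = 0.286). This difference was 3.37 points with lists cut to the same length and from 3.44 (without HFD-LSK replicate 2) to 14.8 points (without HFD-LSK replicate 1) with 1 library left out. The difference in median percentile was 4.78 points, from 66.7 ± 9.08 in HFD-LSK to 61.9 ± 3.59 in LFD-LSK (exact permutation p = 0.486), and it was −1.58 points without HFD-LSK replicate 2. None of these 5 diet comparisons passed a threshold of 0.05, and the smallest p that 3 against 4 libraries allow is 0.0286.

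Only 2 of the 1089 near-start regions (0.184%) were called in all 3 HFD-LSK lists and in no LFD-LSK list, against 44 (0.3%) of all consensus regions, and 0 were called in all 4 LFD-LSK lists and in no HFD-LSK list, as among all consensus regions (0%). The first lay 1247 bp upstream of Zfp217 (chr2:170152924-170153958), which encodes a zinc-finger factor, at percentiles of 95.9, 80.5 and 47.4. The other lay 1617 bp upstream of the small nucleolar RNA gene Gm24505 (chr7:35214812-35215618), at 92.1, 86.8 and 37.8, and held the listed start of Lrp3, a lipoprotein receptor relative. Both had Fisher's exact p = 0.0286, the value of every region with this pattern of calls, so the p only restates how they were picked. It is also the smallest p that 3 against 4 libraries allow. With 44 such regions among 14659, none could pass adjustment, and the adjusted p was 1 for both. Neither start had a region of its own. With lists cut to the same length the count was 0 of 525, against 22 of 10713 (0.205%) of all consensus regions. The condition is easier to meet with fewer libraries: without HFD-LSK replicate 1, 2 or 3 the count was 66 (6.05%), 7 (0.638%) or 5 (0.529%), against 3.98%, 0.397% and 0.463% of all consensus regions. Without LFD-LSK replicate 1 it was 2 (0.184%), against 0.375%. Without LFD-LSK replicate 2, 3 or 4 it was 12 (1.09%), 11 (1.05%) or 6 (0.554%), against 1.47%, 0.871% and 0.438%. Without HFD-LSK replicate 2, 1 of 1098 near-start regions was called only in LFD-LSK. The matching share of all consensus regions is not given, so this count cannot be set against it.

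Of the 121 near-start regions that every list called, 6 (4.96%) had a lower percentile in every HFD-LSK library than in any LFD-LSK library, against 3.69% of the 4395 consensus regions called in all 7 lists. The reverse held for 0, against 1.5%. The 6 belonged to Ccnl1, Inpp5k, Ak4, Rabepk, the noncoding gene LOC115490435 and the pseudogene Rpl30-ps2. Ccnl1 encodes cyclin L1, a partner of splicing kinases, and its downstream region (chr3:65957110-65959299) had percentiles of 1.65, 0.359 and 4.74 in HFD-LSK and 19.5, 39.3, 16.2 and 20.7 in LFD-LSK. At Inpp5k, a phosphoinositide phosphatase, they were 20.5, 3.28 and 19.5 against 27.9, 29.8, 29.8 and 34.5.

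At Ak4, a mitochondrial adenylate kinase, the percentiles were 31.2, 29.9 and 3.15 against 33.7, 31.6, 51.1 and 79.0. The Rpl30-ps2 region, which holds the listed start of Thsd1, had 30.3, 33.8 and 9.11 against 62.4, 96.2, 54.4 and 73.1, and that upstream of Rabepk had 33.7, 34.1 and 11.2 against 49.5, 51.1, 99.0 and 79.0. The margins between the diets were narrow at Ak4 and LOC115490435, where the closest values were 31.2 and 31.6, and 16 and 16.2. By exact permutation, 3 of the 121 (2.48%) had p = 0.0286 (Ccnl1, Inpp5k and Rpl30-ps2), against 112 of the 4395 (2.55%) with p under 0.05, and 0 passed after Benjamini-Hochberg adjustment over the 4395 regions (lowest adjusted p = 0.939). The count of 6 was 1 of 43 (2.33%, against 2.10% of all such regions) with lists cut to the same length, 0 of 13 (against 1.94%) with calls covering at least 50% of the region, 2 of 56 (3.57% against 3.77%) with a −log10 q of at least 5 and 2 of 40 (5% against 3.69%) with every listed transcript start counted. Without HFD-LSK replicate 1, 2 or 3 it was 19 (15.2%), 10 (7.14%) or 12 (9.76%), against 13.1%, 5.30% and 9.72% of all regions called in every remaining list. Without LFD-LSK replicate 1 or 2 it was 9 (5.92%) or 9 (7.09%), against 5.04% and 7.96%. Without LFD-LSK replicate 3 or 4 it was 16 (12.6%) or 10 (5.62%), against 6.92% and 5.45%. The count of 0 in the other direction was 2 (1.6%), 5 (3.57%) or 4 (3.25%) without those HFD-LSK replicates, against 5.19%, 6.10% and 3.09% of all such regions, and 1 (0.658%) or 2 (1.57%) without LFD-LSK replicate 1 or 3, against 3.30% and 2.52%.

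At the bounds of the definition, just over 1 kb from a start lay regions of Ppdpf (1004 bp, 2 lists) and Gm7542 (1005 bp, 3 lists), and just within it lay regions of Dctpp1 (1000 bp, 1 list) and 4930453N24Rik (998 bp, 7 lists). Just under 3 kb lay those of Gm35934 (2999 bp, 1 list) and Gclc (2992 bp, 6 lists), and just over it those of Eya1 (3001 bp, 2 lists) and Rsbn1l (3003 bp, 1 list). For 27 near-start regions an end of a gene without a known strand lay within 1 kb, so these may lie at a start that was not counted.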

How the data were processed

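Peak lists of 7 H3K4me3 CUT&Tag libraries were analyzed, 1 per library, with diet and replicate number taken from the labels. The sample titles name CUT&RUN, whereas the paper's methods give CUT&Tag. The submitters' processing notes name Trim Galore, Bowtie2, Picard, MACS2, bedtools, HOMER and featureCounts and the build GRCm38, whereas the paper's methods give GRCm39 and SEACR. The coordinates were read as GRCm38. The deposited values of a peak are its fold enrichment (summit over local background), −log10 p-value, −log10 q-value and score. The lowest −log10 p was 5.01.

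Peaks were merged and analyzed with Python 3.11.15, NumPy 2.4.6, pandas 2.3.3 and SciPy 1.17.1. Gene positions were those of RefSeq (GRCm38.p6). Strands came from RefSeq starts for 27025 genes and by symbol from GENCODE for 18192 more, so 45217 of 49943 genes had a start. A region was called in a library when any of its peaks overlapped it, and the peak of highest fold gave its values. Classes were compared over 7 libraries by exact sign-flip permutation and diets over 35 groupings by exact permutation, two-sided, with Benjamini-Hochberg adjustment over 16 tests. Alternatives were a stricter q, lists of equal length, wider merging, a minimum overlap, a minimum of 2 lists, protein-coding starts, distance from the middle, ranks by p, the replicate block and leaving out each library. Steps were tested on simulated lists.

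Named regions were the 6 upstream and 6 downstream nearest the top of all 7 lists, those called only in 1 diet, the 4 widest, those of the gene lists, those of starts with most regions, those nearest the bounds and those whose ranks did not overlap between diets. Members and lists were chosen with earlier results of these data known. Erythroid markers are not reported here.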

Additional observations from a re-analysis of the deposited data

Results flagged for a closer look

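Among the 94 sets of 4 LFD-LSK values examined, 5 held a value far from the other 3, and chance alone gives such a value in about 1 in 20 groups. The region upstream of Gm41298 had a fold-rank percentile of 99.1 in LFD-LSK replicate 3, against 9.14, 8.10 and 5.55 in replicates 1, 2 and 4, although its peak there was 2337 bp wide. LFD-LSK replicate 4, the library with the shortest list, had the narrowest LFD-LSK peak in 14 of 24 named near-start regions called in all 4 LFD-LSK lists, and in 3 of them it stood apart, at 800 bp for Vapa, 816 bp for Ier2 and 234 bp for Gm52869. At Fbxo33 the peak of LFD-LSK replicate 2 was 867 bp wide, against 1215, 1280 and 1280 bp in replicates 1, 3 and 4. The part of list length or library depth in these values was not tested.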

How the results depend on the processing

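The lists hold only peaks past a p limit, so a region missing from a list may lie under it. Read depth is not given. Of the comparisons between classes of regions, 162 values kept their direction and their side of the threshold, and 15 changed direction. In all, 9 no longer passed the threshold, 3 of them with a change of direction, and 3 passed it only under the alternative, 1 of them with a change of direction. Of the diet comparisons, 85 kept both and 5 changed direction without passing the threshold. The cause of each change was not tested. Strands from GENCODE alone and listed transcript starts counted as starts were chosen after seeing the data.

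With a −log10 q of at least 5, the percentile difference between near-start and in-gene regions was 0.998 and 2 regions ranked nearer the top in HFD-LSK. With lists cut to the same length, the diet difference was 0.14 points in downstream share and −0.831 in percentile, the width difference was 9.21 bp from in-gene regions and −22.2 bp between start regions with and without a neighbour, 0 regions were called only in HFD-LSK and 1 ranked nearer the top there. With merging within 500 bp, the last pair of width differences were 14.1 and −1.71 bp.

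With a call covering at least 50% of the region, the percentile difference from in-gene regions was 0.106, downstream peaks were 108 bp wider than upstream peaks (exact p = 0.0625) and 0 regions ranked nearer the top in HFD-LSK. With regions called in at least 2 lists, the diet difference in percentile was −0.225 and the width differences were 9.64 bp from in-gene regions and 42.8 bp between start regions, which no longer passed the threshold (exact p = 0.156). With protein-coding starts alone, the width difference from in-gene regions was 8.14 bp. Among regions called in every list, 1 of 136 near-start regions (0.735%) ranked farther down in every HFD-LSK list, against 1.502% of all 4395.

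With distance from the middle of the region, the difference from in-gene regions was −12.8 points and 199.9 bp, that from start regions 35 bp, and that between start regions 23 bp (exact p = 0.0781), with 14 of 432 near-start regions (3.24%) nearer the top and 3 (0.694%) farther in HFD-LSK, against 3.69% and 1.502% of all regions called in every list. With strands from GENCODE alone, the width difference from in-gene regions was 3.5 bp. Among regions called in every list, 1 of 126 near-start regions (0.794%) ranked farther in HFD-LSK, against 1.502% of all 4395. With listed transcript starts counted as starts, the diet difference in downstream share was 0.228 and downstream regions differed from upstream by −4.50 points. The differences from in-gene regions were 2.17 points and −31.8 bp (exact p = 0.0469). Of 912 near-start regions, 1 (0.11%) was then called only in HFD-LSK, against 0.3% of all consensus regions. Among the 40 called in every list, 2 ranked nearer the top in HFD-LSK.

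Leaving out 1 library at a time gave ranges of 160 to 391 regions and 0.805 to 2.09, −3.50 to −1.08 and 3.44 to 14.8 percentage points for the diet differences in count, share, downstream share and own-region share, and −1.58 to 8.66 points in percentile. Near-start regions differed from start regions by 17.7 to 20.03 points and −234 to −171 bp, and from in-gene regions by −0.612 to 0.154 points and −19.9 to 0.5 bp. Downstream regions differed from upstream by −12.3 to −7.25 points and 66.2 to 130 bp, and regions with an own region from those without by 18.7 to 21.2 points and −224 to −181 bp. Start regions with a neighbour were 68 to 103 bp wider, and regions at listed starts differed by −26.2 to −23.1 points and 259 to 293 bp. Regions called only in HFD-LSK numbered 2 to 66, only in LFD-LSK 0 to 1, nearer the top in HFD-LSK 9 to 19 and farther 0 to 5.

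Replicate numbers are shared by the diets, but the deviations of same-numbered libraries from their group means correlated at 0.186, 0.0167 and 0.0522 over the regions called in all 7 lists, so they were not taken as pairs. Each of the 3 HFD-LSK libraries correlated best with the LFD-LSK library of its own number, while LFD-LSK replicate 2 correlated more with HFD-LSK replicate 3 (0.0411). The numbers in the deposited names differ from those of the labels, so a shared number may not mark a pair. The paper states that diets were compared only within a cohort, and that its differential analysis took batch and pairing into account. The labels name no cohort, so the permutations between diets treated the 7 libraries as exchangeable. With the replicate block, over 3 pairs, the diet differences were 221 regions, 1.19, −1.76 and 6.50 percentage points and 3.46 points in percentile, and no call changed. The smallest exact p such a block allows is 0.25.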
